A study of Mus musculus with 16 samples.

Results

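The CC chemokines described here are 9 genes, *Ccl2*, *Ccl3*, *Ccl4*, *Ccl5*, *Ccl7*, *Ccl8*, *Ccl9*, *Ccl11* and *Ccl20*, chosen by name from the 55414 genes of the count tables. The choice was made with earlier results of these data known, so counts of members set beside shares of all genes are a description only. The 9 genes were measured by RNA-Seq in 16 libraries of chondrocyte-enriched cells, cultured from the epiphyses of newborn C57BL/6 mice with males and females pooled. The 4 groups, of 4 libraries each, were wild type littermate (control) cells with vehicle (PBS), heterozygous *Notch2*tm1.1Ecan cells with vehicle, control cells with TNFα and *Notch2*tm1.1Ecan cells with TNFα, with TNFα given for 6 h at a dose of 50 ng/ml. The *Notch2*tm1.1Ecan allele is a global mutation with a stop codon ahead of the PEST domain, so that NOTCH2 is stable and the allele is a gain of function in every cell of the mouse, chondrocyte or not. The sample annotation gives serum deprivation for the TNFα groups only, whereas the published methods give it for all groups, and an effect of TNFα and one of serum removal cannot be told apart if the annotation holds. The design asks how TNFα changed these genes in each genotype, how the genotypes differed under each treatment, and whether the change with TNFα differed between genotypes.

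CC chemokines are small secreted proteins, named for a pair of adjacent cysteines, that bind G protein-coupled receptors on leukocytes and direct their migration along a gradient. *Ccl2*, *Ccl7* and *Ccl8* encode monocyte chemoattractants and *Ccl11* encodes eotaxin, which attracts eosinophils. *Ccl3*, *Ccl4*, *Ccl5* and *Ccl9* encode ligands that attract macrophages, T cells and other leukocytes, in part through CCR1, and *Ccl20* encodes the ligand of CCR6. TNFα induces many of them through NF-κB, and chondrocytes of inflamed joints are among the cells known to release them.

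The genes lie in clusters. On GRCm39, *Ccl2*, *Ccl7*, *Ccl11* and *Ccl8* lie in this order on the plus strand of chromosome 11, from *Ccl2* at 81926397 to 81928279 to *Ccl8* at 82006007 to 82007625. A gap of 1409 kb separates them from *Ccl5* at 83416602 to 83425942, *Ccl9* and *Ccl3* on the minus strand, and *Ccl4* at 83553383 to 83555509 on the plus strand. CC chemokine genes outside the 9 lie among them, *Ccl12* between *Ccl11* and *Ccl8*, and *Ccl6* between *Ccl9* and *Ccl3*. *Ccl20* is alone on chromosome 1 at 83094487 to 83096888. The annotation places an antisense lncRNA over *Ccl3*, with 276 shared exon bases, and the strand setting of the counting is not given in the sources used here, so reads of the 2 genes may not be separable. Antisense lncRNAs at *Ccl5* and *Ccl9* share 0 exon bases with them.

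RefSeq promoter sequences (GRCm38.p6) were at hand for 4 of the 9 members, *Ccl20*, *Ccl9*, *Ccl3* and *Ccl8*. The 250 bases upstream of each start are shown 5′ to 3′ on the gene's strand. The responses of these 4 genes differed: *Ccl20* and *Ccl9* changed many-fold from a low and a moderate level, *Ccl3* differed most between genotypes with TNFα, and *Ccl8* stayed near the limit of detection. The most abundant members, *Ccl2*, *Ccl5* and *Ccl7*, are not among them. Capitals mark a match to the κB motif, which reads on the opposite strand of the one printed. They lie at chr1:83116516-83116765 (plus strand), chr11:83578637-83578886 (minus), chr11:83649379-83649628 (minus) and chr11:82114935-82115184 (plus), in the order printed.
Ccl20: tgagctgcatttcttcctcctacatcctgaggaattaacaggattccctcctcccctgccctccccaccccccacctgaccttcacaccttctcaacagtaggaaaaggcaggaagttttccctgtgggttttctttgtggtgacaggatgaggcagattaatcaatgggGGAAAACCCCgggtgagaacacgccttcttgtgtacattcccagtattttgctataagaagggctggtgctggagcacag
Ccl9: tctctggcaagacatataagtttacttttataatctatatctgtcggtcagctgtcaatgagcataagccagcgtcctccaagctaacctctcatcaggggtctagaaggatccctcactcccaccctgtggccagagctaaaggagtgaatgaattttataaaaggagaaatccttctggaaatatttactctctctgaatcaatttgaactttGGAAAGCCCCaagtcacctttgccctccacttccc
Ccl3: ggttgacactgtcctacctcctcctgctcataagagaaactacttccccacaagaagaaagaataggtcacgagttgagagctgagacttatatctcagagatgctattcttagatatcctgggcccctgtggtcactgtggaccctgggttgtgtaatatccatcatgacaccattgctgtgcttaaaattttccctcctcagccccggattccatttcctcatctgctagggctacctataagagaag
Ccl8: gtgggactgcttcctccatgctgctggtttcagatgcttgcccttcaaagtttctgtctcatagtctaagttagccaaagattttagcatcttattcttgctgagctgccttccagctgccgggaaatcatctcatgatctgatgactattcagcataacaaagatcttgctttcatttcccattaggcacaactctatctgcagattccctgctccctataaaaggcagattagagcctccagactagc

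The κB motif, a site of NF-κB binding, was found in *Ccl20*, from 80 to 71 bases before the start, and in *Ccl9*, from 35 to 26 bases before it, and 3.90% of all 32851 promoter windows of this length hold it on either strand. The AP-1 motif TGANTCA was found in *Ccl9* and in 6.75% of all windows. The letters TGGGAA, the core of the motif bound by RBPJ, the DNA-binding partner of Notch, were found in *Ccl20* and *Ccl8* and in 21.6% of all windows. TATAAA was found in *Ccl8* and *Ccl9* and in 12.4% of all windows. In *Ccl9* the TATAAA matches on the 2 strands overlapped each other, and no match overlapped one of another motif. *Ccl3* held none of the 4, which says only that these letters are not in this window.

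Counts on genes ranged from 3439726 in *Notch2*tm1.1Ecan TNFα replicate 4 to 44237300 in *Notch2*tm1.1Ecan vehicle replicate 4, with a median of 17062419. Levels are given as counts per 1000000 of the TMM-scaled library size (CPM), and 3 counts or fewer in every library of a group were read as below detection. That floor is 0.0703 CPM in the deepest library and 0.835 CPM in the shallowest, and it covers counting error only. The 10 chondrocyte markers, among them *Col2a1* and *Acan*, were all detected and summed to between 18694 and 50239 CPM. In *Notch2*tm1.1Ecan cells all 10 were lower under both treatments, where 4.31% of all genes were lower with TNFα and 4.35% with vehicle at an adjusted p under 0.05 (with vehicle 9 of 10 without control replicate 4). With TNFα 9 of the 10 fell in each genotype, where 20.9% of genes passed as lower in control and 21.9% in *Notch2*tm1.1Ecan cells. The 14 macrophage markers, none of them at 0 in any group, summed to 76.4 to 81.7 CPM in control and 143 to 169 CPM in *Notch2*tm1.1Ecan cells with vehicle. Endothelial markers were higher in *Notch2*tm1.1Ecan cells for 3 of 5 genes under both treatments, and fibroblast and perichondrium markers for 5 of 6 with TNFα and 4 of 6 with vehicle, where 1 was lower, against 5.63% of all genes higher with TNFα and 6.19% with vehicle. Neutrophil, T and NK cell, B cell and mast cell markers summed to at most 2.65, 0.514, 0.156 and 5.39 CPM in any library, and none of them passed between genotypes. The counts of *Notch2* itself, which do not show the stop codon, were 0.53 higher on the log2 scale in *Notch2*tm1.1Ecan cells with TNFα (edgeR adjusted p = 0.0178) and 0.23 with vehicle (0.283). Since these are bulk RNA, fewer cells of a type and less RNA per cell cannot be told apart. Control vehicle replicate 4 stood apart from the other 3 control vehicle libraries in the direction of the TNFα libraries, so member results that rest on it are given with and without it. *Notch2*tm1.1Ecan vehicle replicate 1 also differed from the other 3 libraries of its group (chi-square per degree of freedom 10.9 to 12.8) more than they did among themselves (3.23 to 4.00). Without it each member called with TNFα in these cells stayed called, and none was called between genotypes with vehicle. The interaction of *Ccl9* described below was then not called.

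Among the monocyte chemoattractants, *Ccl2* and *Ccl7* were expressed in vehicle and were far higher with TNFα in both genotypes. *Ccl2* stood at 14.5, 16.1, 16.2 and 205 CPM in control vehicle replicates 1 to 4 and at 20.6, 24.0, 26.7 and 22.1 CPM in *Notch2*tm1.1Ecan vehicle cells. With TNFα it stood at 1302, 1332, 1452 and 1081 CPM in control and at 1539, 1554, 1427 and 2024 CPM in *Notch2*tm1.1Ecan cells. The vehicle and TNFα groups did not overlap in either genotype, and the 205 CPM of control vehicle replicate 4 was the single vehicle value above 26.7 CPM. *Ccl7* stood at 21.3, 22.03, 20.03 and 64.3 CPM in control and at 32.2, 39.1, 38.2 and 34.9 CPM in *Notch2*tm1.1Ecan cells with vehicle. With TNFα *Ccl7* stood at 294, 309, 322 and 245 CPM in control and at 302, 311, 280 and 342 CPM in *Notch2*tm1.1Ecan cells. As for *Ccl2*, treatment separated the libraries and control vehicle replicate 4 was the highest without TNFα.

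*Ccl8* and *Ccl11*, their neighbors on chromosome 11, were close to the limit of detection. *Ccl8* had 0 counts in all 4 control vehicle libraries, 2, 3, 1 and 1 counts in *Notch2*tm1.1Ecan vehicle, 8, 11, 18 and 9 counts in control TNFα and 11, 15, 12 and 0 counts in *Notch2*tm1.1Ecan TNFα. The 0 was in the shallowest library, where 3 counts equal 0.835 CPM. *Ccl11* had 0 counts in all 8 vehicle libraries, 2, 4, 1 and 3 counts in control TNFα and 2, 1, 2 and 3 counts in *Notch2*tm1.1Ecan TNFα. Both genes were seen mainly or only with TNFα.

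*Ccl5* showed the widest span of the 9 genes. It stood at 0.334, 0.153, 0.131 and 169 CPM in control vehicle, the first 3 values resting on 6, 2 and 2 counts, and at 0.425, 0.363, 1.47 and 0.586 CPM in *Notch2*tm1.1Ecan vehicle. TNFα brought 1213, 1217, 1304 and 978 CPM in control and 1088, 1105, 1114 and 1418 CPM in *Notch2*tm1.1Ecan cells. A gene at 1.47 CPM or less in 7 of 8 vehicle libraries thus reached the level of *Ccl2* with TNFα, while control vehicle replicate 4 held 2778 counts of it. *Ccl3* was low throughout, at 0.278, 0.229, 0.653 and 1.27 CPM in control and 0.496, 0.831, 0.576 and 0.422 CPM in *Notch2*tm1.1Ecan cells with vehicle. With TNFα it stood at 3.04, 3.10, 3.32 and 3.18 CPM in control and at 7.94, 5.60, 5.29 and 8.07 CPM in *Notch2*tm1.1Ecan cells. Every *Notch2*tm1.1Ecan TNFα library was above every control TNFα library. *Ccl4*, the neighbor of *Ccl3*, stood at 0.223 to 0.306 CPM in control vehicle, 0.213 to 0.629 CPM in *Notch2*tm1.1Ecan vehicle, 0.234 to 0.745 CPM in control TNFα and 0.682 to 1.76 CPM in *Notch2*tm1.1Ecan TNFα. Its highest count was 27, so its values carry wide counting error.

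*Ccl9*, a ligand of CCR1, stood at 10.2, 8.72, 9.72 and 16.2 CPM in control and at 8.93, 8.31, 10.3 and 9.19 CPM in *Notch2*tm1.1Ecan cells with vehicle. With TNFα *Ccl9* stood at 60.1, 56.1, 60.7 and 46.8 CPM in control and at 91.7, 91.8, 86.4 and 88.2 CPM in *Notch2*tm1.1Ecan cells. The genotypes overlapped with vehicle and were separate with TNFα. *Ccl20*, the ligand of CCR6, had 1, 1, 2 and 56 counts in control vehicle and 2, 1, 3 and 3 counts in *Notch2*tm1.1Ecan vehicle, and only the 3.40 CPM of control vehicle replicate 4 was above the floor. With TNFα it stood at 20.4, 22.9, 23.2 and 22.2 CPM in control and at 44.0, 41.9, 30.7 and 41.5 CPM in *Notch2*tm1.1Ecan cells. As for *Ccl3* and *Ccl9*, the TNFα libraries of the genotypes did not overlap.

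**Figure D1:**
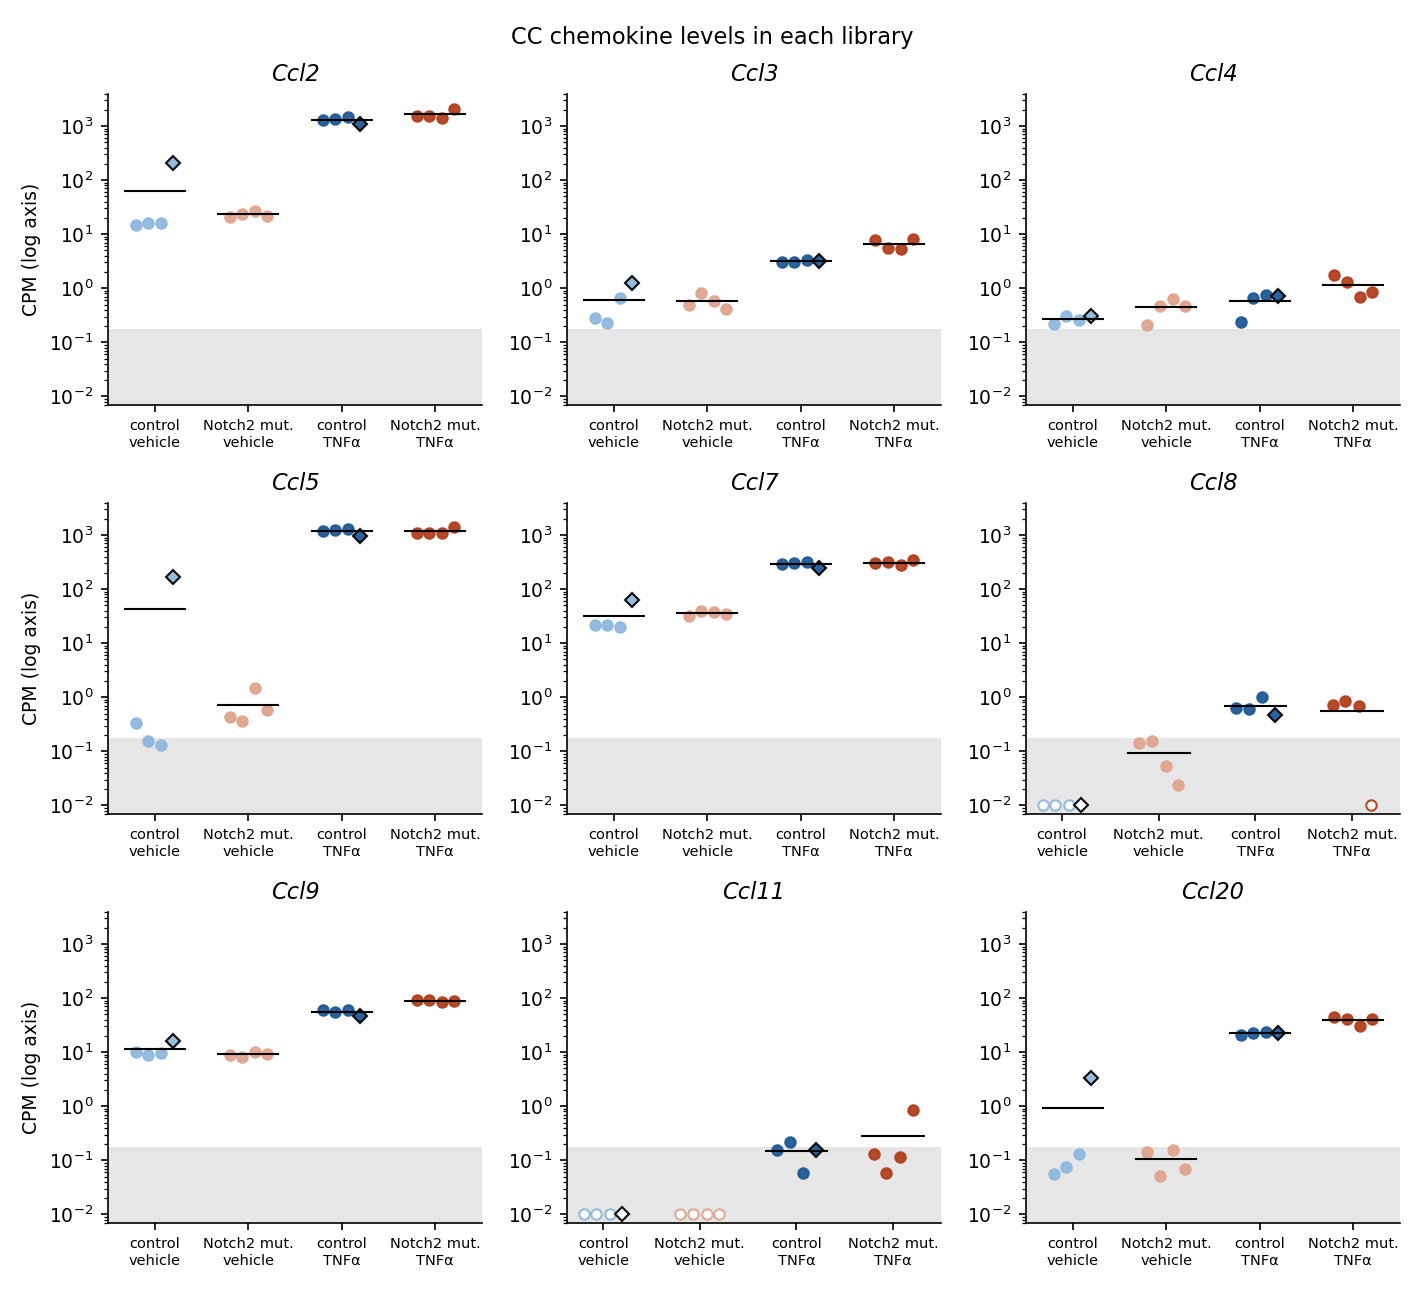
CPM (log axis) of the 9 CC chemokines in each of the 16 libraries, with a line at the group mean, where diamonds mark control replicate 4, open symbols at the bottom are values of 0, and the grey band lies below the median floor of 3 counts. In control vehicle replicate 4, *Ccl2*, *Ccl3*, *Ccl5*, *Ccl7*, *Ccl9* and *Ccl20* stand between the other vehicle libraries and the TNFα libraries.

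Per kb of exon, which allows levels of different genes to be compared, the order with TNFα was led by *Ccl5* and *Ccl2*. Exon length was taken over all annotated transcripts of a gene, and the expressed transcript may be shorter, so close ranks depend on this choice. In control cells with TNFα, *Ccl5* had 1147 ± 136 and *Ccl2* 1135 ± 136 CPM per kb (SD, n = 4), and their ranges overlapped. *Ccl7* followed at 362 ± 41.7 CPM per kb, apart from both, and then *Ccl9* at 17.97 ± 2.05 and *Ccl20* at 15.6 ± 0.871 CPM per kb, whose ranges overlapped. *Ccl3* had 4.07 ± 0.159 CPM per kb, and *Ccl8*, *Ccl4* and *Ccl11* came last. In *Notch2*tm1.1Ecan cells with TNFα, *Ccl2* came first with 1438 ± 233 and *Ccl5* second with 1150 ± 154 CPM per kb, with overlapping ranges, followed by *Ccl7* at 382 ± 31.8, *Ccl9* at 28.8 ± 0.844, *Ccl20* at 27.8 ± 4.19 and *Ccl3* at 8.66 ± 1.92 CPM per kb. In *Notch2*tm1.1Ecan cells with vehicle the order was led by *Ccl7* at 44.8 ± 3.91 CPM per kb, above *Ccl2* at 20.5 ± 2.32 and *Ccl9* at 2.95 ± 0.263, while *Ccl5* was at 0.692 ± 0.4996 CPM per kb, within the range of *Ccl3*. In control cells with vehicle *Ccl2* was at 55.4 ± 83.4, *Ccl5* at 41.2 ± 82.0 and *Ccl7* at 39.5 ± 26.7 CPM per kb with all 4 libraries, and *Ccl5* was at 0.2005 ± 0.109 CPM per kb (n = 3) without replicate 4. Leaving that library aside, *Ccl5* was among the lowest of the detected members with vehicle and among the highest with TNFα.

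Summed over the 9 genes, the CC chemokines took 0.238 to 0.317% of all CPM in control TNFα libraries and 0.295 to 0.392% in *Notch2*tm1.1Ecan TNFα libraries. In *Notch2*tm1.1Ecan vehicle libraries they took 0.00631 to 0.00780%, and in control vehicle libraries 0.00469 to 0.00477% in replicates 1 to 3 and 0.0459% in replicate 4. *Ccl2* made up 45.0 to 45.9% of the sum in control TNFα and 48.5 to 51.6% in *Notch2*tm1.1Ecan TNFα libraries, *Ccl5* 41.1 to 41.9% and 35.4 to 37.8%, and *Ccl7* 10.2 to 10.5% and 8.71 to 9.99%. These 3 genes thus held nearly the whole sum. The share of each did not overlap between genotypes, but shares of a common sum depend on each other. The levels of none of the 3 passed between genotypes with TNFα, as given below.

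TNFα against vehicle was then tested in each genotype. A gene was called when its Benjamini-Hochberg adjusted p in edgeR's quasi-likelihood test was under 0.05 and it changed at least 2-fold. In control cells 7 of the 9 members were called higher, against 8.47% of the 19338 genes tested, and none was lower. Between vehicle and TNFα the groups of 8 of the 9 did not overlap, against 19.7% of genes. *Ccl8* and *Ccl11* passed the filter on low counts only through their TNFα libraries, and 5 of the other 7 members were called. The log2 change was 4.39 ± 1.13 (SE) for *Ccl2* (edgeR adjusted p = 0.0204), 3.23 ± 0.458 for *Ccl7* (0.00139), 2.35 ± 0.201 for *Ccl9* (7.20e-05), 4.58 ± 0.703 for *Ccl20* (0.00205) and 2.38 ± 0.331 for *Ccl3* (4.92e-06). *Ccl5*, with 4.83 ± 2.00, was not called (adjusted p = 0.103) even though its groups did not overlap, and *Ccl4* was not called with 1.18 ± 0.484 (adjusted p = 0.0536). The wide errors of *Ccl2*, *Ccl5* and *Ccl20* came with the single high value of control vehicle replicate 4.

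Without control vehicle replicate 4, 8 of the 9 members were called higher, against 9.11% of the 18991 genes then tested. *Ccl8*, *Ccl11* and *Ccl20* then passed the filter only through TNFα libraries, and 5 of the other 6 were called, with *Ccl4* as the exception at 1.23 ± 0.537 (edgeR adjusted p = 0.0672). The log2 change was then 6.41 ± 0.124 for *Ccl2*, 3.83 ± 0.0987 for *Ccl7*, 12.40 ± 0.216 for *Ccl5*, 2.57 ± 0.0986 for *Ccl9* and 3.04 ± 0.319 for *Ccl3*. The fitted value of *Ccl5* rests on 10 counts over the 3 vehicle libraries, and the ratio of pooled counts was 5425 with a 95% counting interval of 2950 to 11312. That counting interval is wider than the fitted SE implies. For *Ccl20*, whose 3 remaining vehicle libraries held 1 or 2 counts, TNFα control cells were at least 112-fold higher than the mean floor of 3 counts per library. For *Ccl8*, at 0 in every control vehicle library, the same bound was at least 3.51-fold with all libraries. *Ccl11* was at or under the floor in nearly all libraries of both groups and is given no fold. Without replicate 4 of control cells in both treatments it had too few counts to be tested, and 7 of 8 members were called (9.47% of genes). In that fit *Ccl8* and *Ccl20* passed the filter only through TNFα libraries, and 5 of the other 6 were called. The median log2 change of the 9 members was 2.38 with all libraries and 3.04 without control vehicle replicate 4 when genes below detection in vehicle were set to their bound, *Ccl11* included, beside 0.04 over all genes tested with all libraries.

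In *Notch2*tm1.1Ecan cells all 8 members that could be tested were called higher, against 9.2% of the 19633 genes tested, and *Ccl11* had too few counts. *Ccl8* and *Ccl20* passed the filter only through their TNFα libraries, and the other 6 were all called. The log2 change was 6.17 ± 0.122 for *Ccl2* (edgeR adjusted p = 1.90e-14), 3.14 ± 0.0740 for *Ccl7* (8.54e-23), 10.76 ± 0.229 for *Ccl5* (1.40e-10), 3.34 ± 0.0793 for *Ccl9* (9.90e-23) and 3.58 ± 0.245 for *Ccl3* (1.55e-12). *Ccl4*, at 1.43 ± 0.3899, also passed (adjusted p = 0.00366), with its lowest TNFα value of 0.682 CPM just above its highest vehicle value of 0.629 CPM. *Ccl20* rose at least 265-fold over the mean floor of its vehicle libraries. In 7 of the 8 genes tested the groups did not overlap, which held for 18.2% of genes. *Ccl8* was called as well (adjusted p = 3.65e-04), at least 3.78-fold higher over the floor, but its groups overlapped because of the 0 in the shallowest TNFα library. The median log2 change was 3.34 over the 9 members with bounds, beside 0.03 over all genes tested.

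**Figure D2:**
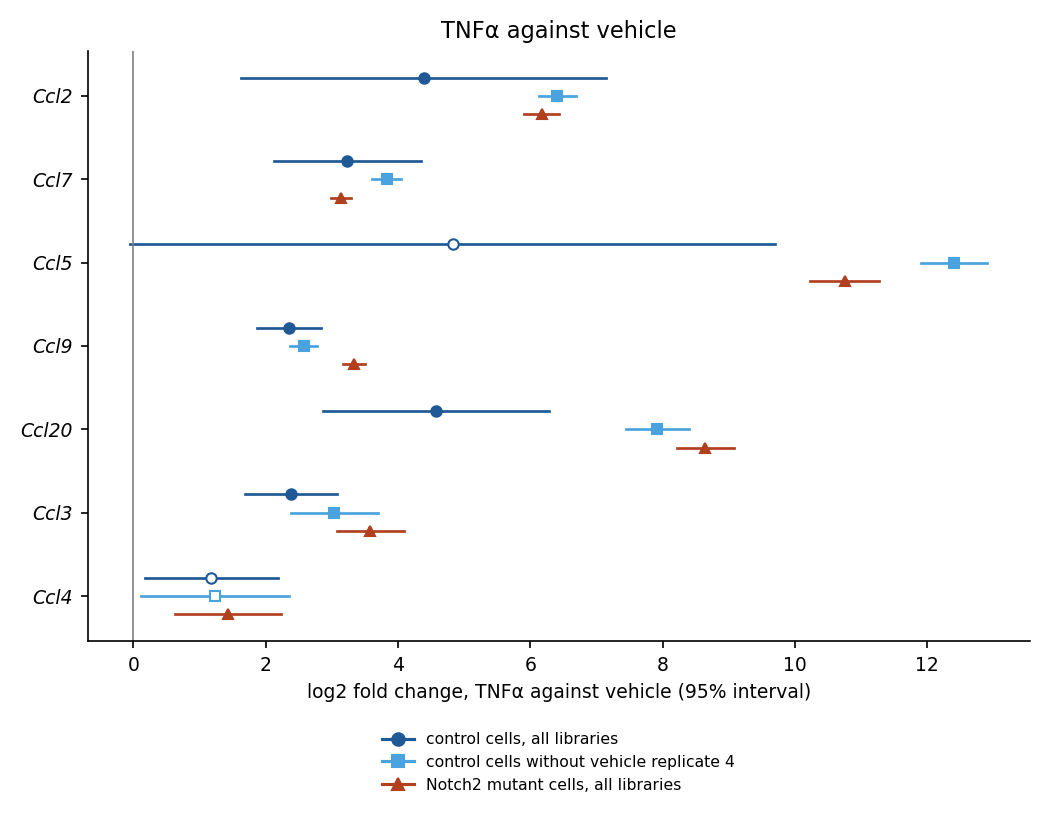
Log2 fold change with TNFα against vehicle, with 95% intervals, for the members other than *Ccl8* and *Ccl11*, in control cells with all libraries, in control cells without vehicle replicate 4 and in *Notch2*tm1.1Ecan cells, with filled symbols for an adjusted p under 0.05. In control cells the intervals of *Ccl2*, *Ccl5* and *Ccl20* narrow when replicate 4 is left out, and *Ccl5* moves from 4.83 to 12.40, while *Ccl20* is at the vehicle floor there and in *Notch2*tm1.1Ecan cells. The intervals drawn for *Ccl20* at the floor, and for *Ccl5* without replicate 4, are narrower than counting error alone.

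*Notch2*tm1.1Ecan and control cells were compared under TNFα. 1 of the 9 members was called higher, against 1.02% of the 19227 genes tested, and 3 of 9 had an adjusted p under 0.05 in the higher direction when no fold was required, against 5.63% of genes. The called gene was *Ccl3*, with a log2 difference of 1.04 ± 0.175 (SE, edgeR adjusted p = 1.12e-04) and a ratio of means of 2.13. The others were *Ccl20*, 0.83 ± 0.0939 higher (adjusted p = 4.34e-07, ratio 1.78), and *Ccl9*, 0.70 ± 0.0714 higher (adjusted p = 4.65e-08, ratio 1.60). Without control TNFα replicate 4 the ratios were 2.13 for *Ccl3*, 1.78 for *Ccl20* and 1.52 for *Ccl9*. In all 3 genes the 4 *Notch2*tm1.1Ecan libraries lay above the 4 control libraries, which held for 6.76% of all genes. *Ccl3* sits at the 2-fold limit: its difference was 0.92 without *Notch2*tm1.1Ecan TNFα replicate 1 and 0.99 without replicate 4, with adjusted p values still under 0.05. *Ccl20* had an adjusted p of 0.136 when edgeR was fitted to all 16 libraries at a time, control vehicle replicate 4 included.

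None of the 3 most abundant members passed between genotypes with TNFα. *Ccl5* differed by 0.02 on the log2 scale, with a 95% interval of -0.19 to 0.22, and *Ccl7* by 0.09, with an interval of -0.07 to 0.24. *Ccl2* was 0.36 ± 0.116 higher in *Notch2*tm1.1Ecan cells without passing (edgeR adjusted p = 0.0905), with overlapping groups, and its adjusted p ranged from 2.21e-06 to 0.839 over the alternatives. *Ccl4* was 0.98 ± 0.393 higher and did not pass (adjusted p = 0.127), with overlapping groups at 3 to 27 counts per library. *Ccl8*, with 0.02 and an interval of -0.85 to 0.89, and *Ccl11*, with 0.16 and an interval of -1.66 to 1.99, rest on few counts, and a 2-fold difference lies outside the interval of *Ccl8* and inside that of *Ccl11*. The median over the 9 members was 0.36, beside -0.01 over all genes. The macrophage markers moved with the same contrast: 12 of 14 passed as higher in *Notch2*tm1.1Ecan cells with TNFα, against 5.63% of all genes. Their median log2 difference was 1.26, and their summed level was 182 to 208 CPM against 87.7 to 103 CPM in control cells. *Ccl3* and *Ccl9* are also expressed by macrophages, and the part of these cells in the differences was not tested.

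**Figure D3:**
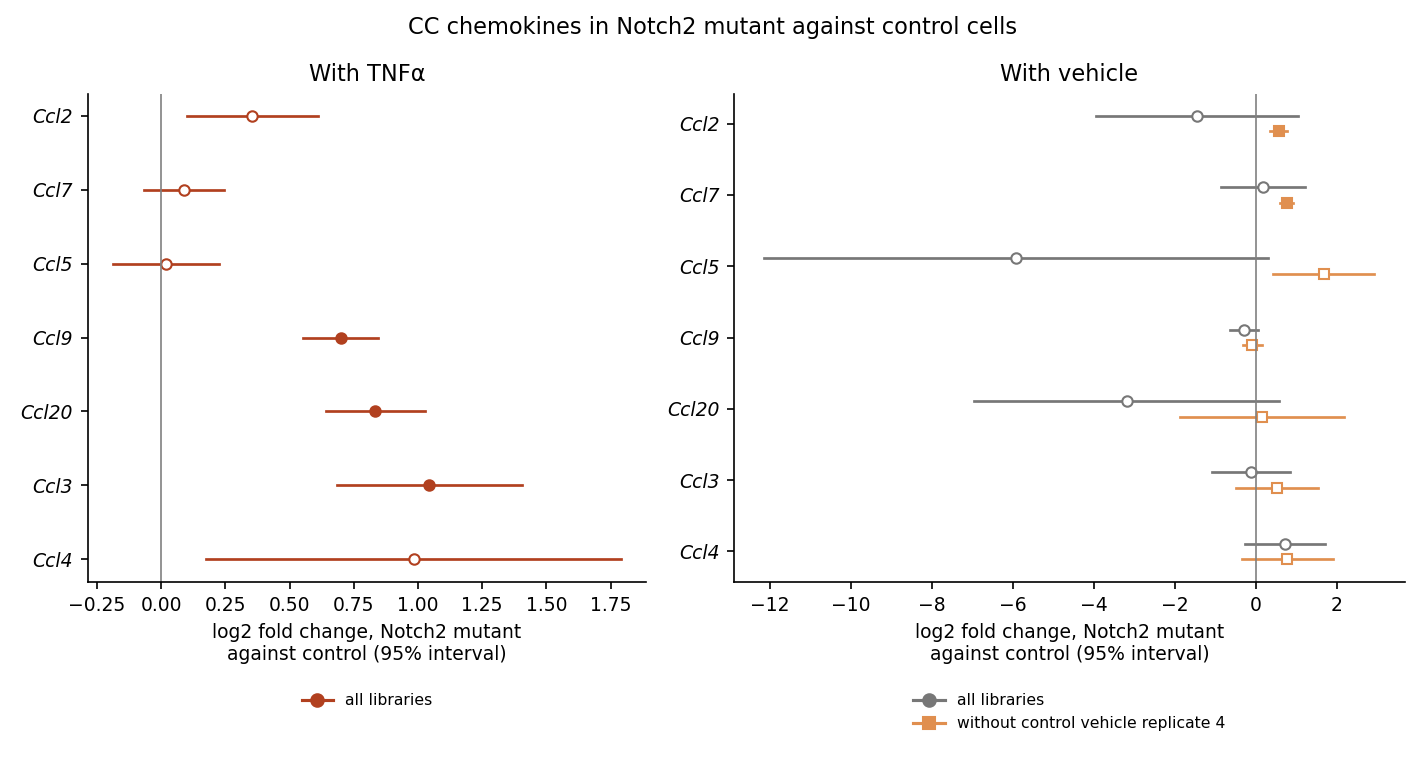
Log2 difference of *Notch2*tm1.1Ecan from control cells, with 95% intervals, with TNFα (left) and with vehicle (right, with and without control vehicle replicate 4, on its own axis), with filled symbols for an adjusted p under 0.05. With TNFα *Ccl3*, *Ccl9* and *Ccl20* are filled and lie above 0, and with vehicle *Ccl2* and *Ccl7* are filled only when control vehicle replicate 4 is left out.

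With vehicle no member was called in *Notch2*tm1.1Ecan against control cells in edgeR, against 0.957% of the 19432 genes called higher and 0.298% called lower. None of the 7 that could be tested had an adjusted or unadjusted p under 0.05, where 6.19% of genes passed as higher, and DESeq2 called 0 as well. *Ccl8* and *Ccl11* had too few counts. The fitted differences of *Ccl2*, -1.44 ± 1.03, *Ccl5*, -5.92 ± 2.56, and *Ccl20*, -3.19 ± 1.56, took their sign from control vehicle replicate 4. Without that library, *Ccl2* was 0.57 ± 0.0969 higher (edgeR adjusted p = 2.05e-04) and *Ccl7* 0.76 ± 0.0822 higher (4.50e-07) in *Notch2*tm1.1Ecan cells. All 4 *Notch2*tm1.1Ecan libraries then lay above the 3 control libraries for both genes, but neither reached a 2-fold difference, and 5.78% of all genes had an adjusted p under 0.05 in that direction. The groups were also apart for *Ccl5*, so that 3 of the 7 genes tested did not overlap, against 11.6% of genes. *Ccl5* was 1.69 ± 0.599 higher without passing (adjusted p = 0.0819), on 10 counts in the control libraries. *Ccl9*, with -0.08 and an interval of -0.31 to 0.16, had a 2-fold difference outside its interval, and *Ccl3*, with 0.53 and an interval of -0.48 to 1.54, had one inside it. The macrophage markers were higher in *Notch2*tm1.1Ecan cells with vehicle too, with 10 of 14 past the test (11 of 14 without control replicate 4), and their part in the *Ccl2* and *Ccl7* values was not tested.

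The genotype by TNFα interaction asks whether the change with TNFα differed between genotypes. 1 of the 9 members, *Ccl9*, was called, against 0.474% of the 21321 genes tested. Its change with TNFα was 0.99 ± 0.195 larger on the log2 scale in *Notch2*tm1.1Ecan cells (edgeR adjusted p = 0.0340), from 9.17 to 89.5 CPM against 11.2 to 55.9 CPM in control cells. When libraries were left out one at a time, it was called in 6 of 16 fits, with adjusted p values up to 0.113 and values of 0.75 to 1.08. Without control vehicle replicate 4, *Ccl9* had an interaction of 0.75 ± 0.127 (adjusted p = 6.57e-04) and *Ccl7* one of -0.70 ± 0.118 (0.00153), against 0.482% of genes, so that *Ccl7* changed less with TNFα in *Notch2*tm1.1Ecan cells, where its vehicle level was higher. Without replicate 4 of control cells in both treatments the values were 0.69 ± 0.119 (6.39e-04) for *Ccl9* and -0.77 ± 0.0981 (4.78e-06) for *Ccl7*, against 0.63% of genes. *Ccl3*, the gene called between genotypes with TNFα, had an interaction of 1.198 ± 0.452 with all libraries (adjusted p = 0.350) and 0.52 ± 0.493 without control vehicle replicate 4 (0.844), so a difference in its change with TNFα was not shown. For *Ccl2* and *Ccl5* the sign turned, from 1.78 to -0.24 and from 5.92 to -1.66, when that library was left out, and neither passed either way. The interaction of *Ccl20* rests on vehicle libraries at 1 to 3 counts apart from control replicate 4 and is not read here.

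The 2 replicate 4 libraries of control cells were placed between the others for each member that reached 10 CPM with TNFα. With the mean of control vehicle replicates 1 to 3 as 0 and that of control TNFα replicates 1 to 3 as 100, control vehicle replicate 4 lay at 14.1% for *Ccl2*, 13.5% for *Ccl5*, 15.0% for *Ccl7*, 13.4% for *Ccl9* and 15.0% for *Ccl20*. These positions are nearly the same for genes whose change with TNFα ranged from 5.85-fold (*Ccl9*) to 5722-fold (*Ccl5*) in ratio of mean CPM. Control TNFα replicate 4 lay at 79.1% for *Ccl2*, 78.6% for *Ccl5*, 77.9% for *Ccl7* and 75.5% for *Ccl9*, but at 100.1% for *Ccl20*. Over the 314 genes that were at least 4-fold higher and at 10 CPM or more in control TNFα replicates 1 to 3, the median position was 16.2% for the vehicle library, with quartiles of 14.2 and 19.5%, and 80.8% for the TNFα library, with quartiles of 76.5 and 85.8%. *Ccl2*, *Ccl5* and *Ccl9* lay just under the lower quartile in the vehicle library and *Ccl7* and *Ccl20* within the quartiles, and in the TNFα library *Ccl9* lay just under them and *Ccl20* above. What set these libraries apart was not tested.

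**Figure D4:**
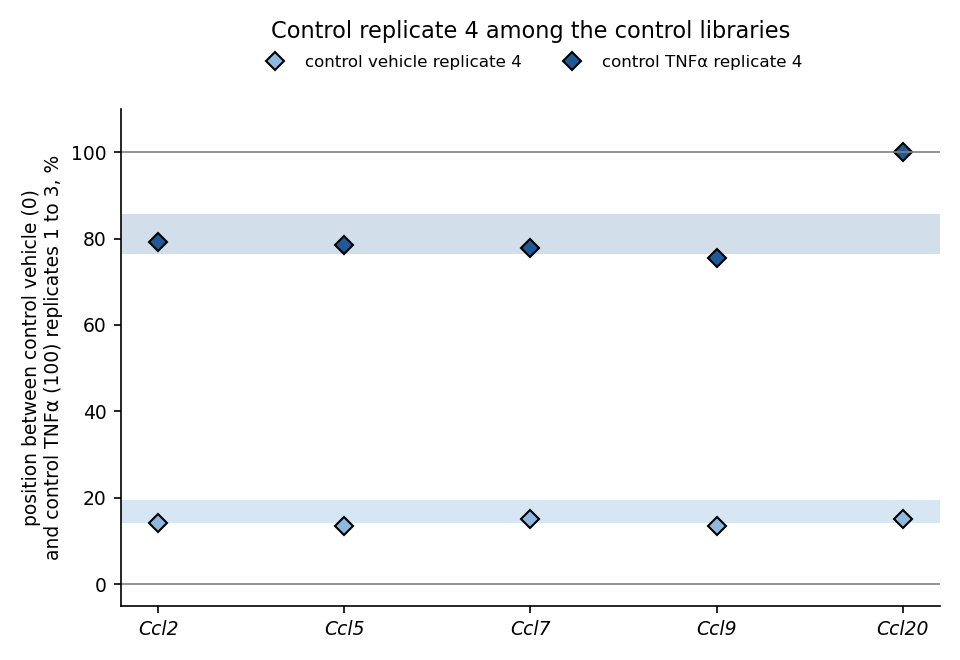
Position of control replicate 4 with vehicle and with TNFα, in percent of the distance from the mean of control vehicle (0) to that of control TNFα (100) replicates 1 to 3, for the 5 members at 10 CPM or more, with bands for the quartiles of 314 genes higher with TNFα. The vehicle library lies between 13.4 and 15.0% for all 5 genes.

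The remaining CC chemokine genes were far lower than *Ccl2*, *Ccl5* and *Ccl7*. The 15 other CC chemokines summed to 6.57 to 7.22 CPM in control vehicle and 9.74 to 13.5 CPM in *Notch2*tm1.1Ecan TNFα libraries, and *Ccl21a*, *Ccl21b*, *Ccl21d*, *Ccl26* and *Ccl27b* had 0 counts in every library. *Ccl21a*, *Ccl21b* and *Ccl21d*, and *Ccl27a* and *Ccl27b*, are near-identical copies, so their values are uncertain. *Ccl19-ps6*, by its name a pseudogene of *Ccl19*, was also counted, so reads of *Ccl19* may not be separable from it and its values are uncertain too. Of these 15 genes, 8 could be tested for TNFα in control cells and 4 passed, all higher, against 23.3% of genes that passed as higher: *Ccl12*, *Ccl19*, *Ccl22* and *Ccl28*. Without replicate 4 of control cells in both treatments 2 of 7 passed, *Ccl12* and *Ccl19*. In *Notch2*tm1.1Ecan cells 6 of 8 passed, all higher (22.6% of genes), namely *Ccl12*, *Ccl19*, *Ccl22*, *Ccl28*, *Ccl17* and *Ccl27a*. In both genotypes *Ccl12*, *Ccl19* and *Ccl22* reached the filter on low counts only through their TNFα libraries. Of the genes that passed, only *Ccl28* in control cells, and *Ccl17*, *Ccl27a* and *Ccl28* in *Notch2*tm1.1Ecan cells, reached it with vehicle too. *Ccl19*, a ligand of CCR7 that guides dendritic cells and T cells, was at 3 counts or fewer in every vehicle library, at 0.435 to 1.09 CPM in control TNFα and at 2.46 to 4.45 CPM in *Notch2*tm1.1Ecan TNFα libraries. It was the only 1 of the 15 that passed between genotypes with TNFα, 2.05 ± 0.301 higher in *Notch2*tm1.1Ecan cells on the log2 scale (edgeR adjusted p = 1.84e-05), and none passed with vehicle or in the interaction.

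Receptors for CC chemokines were scarce. Of 15 receptor genes, *Ccr1l1*, *Ccr6* and *Ccr8* had 0 counts in every library, and *Ccr2*, the receptor of the *Ccl2* product, had 1 count in 1 library. *Ccrl2*, an atypical receptor that binds chemerin and does not signal like the others, was the exception, at 7.40 to 10.9 CPM in control TNFα and 6.12 to 9.05 CPM in *Notch2*tm1.1Ecan TNFα libraries. Its log2 change with TNFα was 4.79 ± 0.689 in control cells (edgeR adjusted p = 0.00132) and 6.01 ± 0.333 in *Notch2*tm1.1Ecan cells (8.21e-14), and it did not pass between genotypes. Control vehicle replicate 4 held 21 counts of it, and the other control vehicle libraries were at the floor. Without replicate 4 the fitted change in control cells was 8.39 ± 0.421, which depends on the prior count and gives no order between the genotypes. *Ackr2*, a scavenger of CC chemokines, also rose with TNFα in both genotypes, by 2.18 ± 0.824 and 2.25 ± 0.761, at no more than 11 counts in any library, and all its counts in control vehicle libraries lay in replicate 4. In *Notch2*tm1.1Ecan cells *Ackr1* also passed as higher with TNFα, at 16 counts or fewer per library, and the difference from control cells did not pass. *Ackr2* in both genotypes, and *Ackr1* in *Notch2*tm1.1Ecan cells, reached the filter on low counts only through their TNFα libraries. None of the receptors named here passed between genotypes under either treatment.

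**Figure D5:**
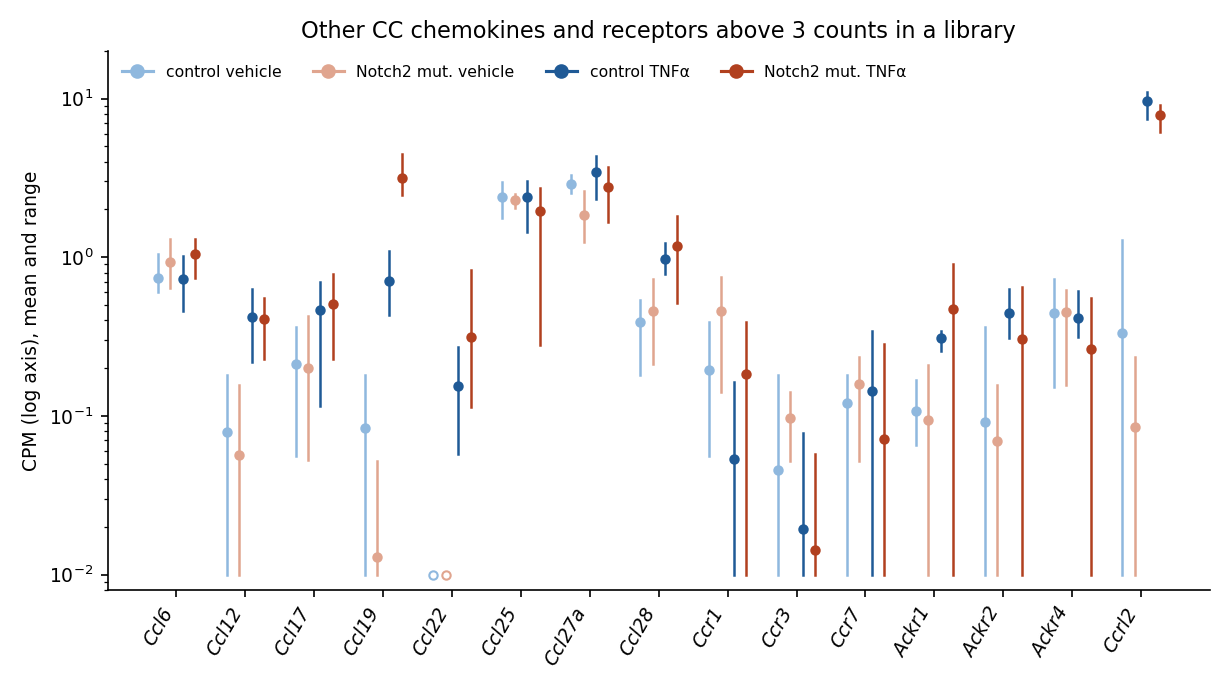
Mean (points) and range (lines) of CPM on a log axis in the 4 groups for other CC chemokines and reported receptors with more than 3 counts in at least 1 library, where open symbols are groups with 0 counts and line ends at 0.01 stand for 0. *Ccrl2* reaches 6.12 to 10.9 CPM with TNFα, and the *Ccl19* range in *Notch2*tm1.1Ecan TNFα libraries lies above that in control TNFα libraries.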

How the data were processed

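RNA-Seq counts of 16 libraries of chondrocyte-enriched mouse cells were analyzed. The authors prepared stranded mRNA libraries, sequenced them in 1 pool with paired ends and deposited whole-number counts per gene without normalization. The submitters' processing notes name GRCm38, HISAT2 2.1.0, SAMtools 1.9, Picard, HTSeq and DESeq2, whereas the paper gives GRCm39, and the build of the counting is therefore unsure. Gene names and positions are those of GENCODE M39 on GRCm39. Entries that name no gene held 8.81 to 12.1% of a library and were left out. Counts on genes were 3439726 to 44237300 per library, and *Ccl8* and *Ccl11* had at most 18 counts in any library.

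Samples were grouped by genotype and treatment as annotated. The annotation names them biological replicates without saying whether cultures came from separate litters, and p values then measure the spread between these libraries only. edgeR 4.0.16 in R 4.3.3 was used with TMM scaling, a minimum of 10 counts summed over the compared libraries, robust quasi-likelihood fits to the 8 libraries of a comparison (16 for the interaction) and Benjamini-Hochberg adjustment over all genes tested. The scripts were tested on simulated data. The study names DESeq2 and mentions covariates without naming them, so none was used here. Genes named in the text were the 9 members and, from lists of other CC chemokines, their receptors, regulators and cell type markers, those that passed or had the highest level, with the 3 genes most like each member. A receptor gene is not reported here. The members and lists were chosen with earlier results of these data known. Alternatives were DESeq2 1.42.0, RLE scaling, other filters, no fold cutoff, all libraries in 1 fit, the replicate number as a block and each library left out. Promoter sequences and motif shares come from RefSeq on GRCm38.p6, since that is the build of the sequence table. Levels, lists and sequence matches were computed with numpy 2.4.6 and pandas 2.3.3 under Python 3.11.15, and plots were drawn with matplotlib 3.10.9.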

Additional observations from a re-analysis of the deposited data

Results flagged for a closer look

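In control vehicle replicate 4, 4 members stood apart from the other 3 libraries of the group by Dixon's test at the 95% level: *Ccl2* at 205 CPM, *Ccl5* at 169 CPM, *Ccl7* at 64.3 CPM and *Ccl20* at 3.40 CPM. *Ccl5* also stood apart in *Notch2*tm1.1Ecan TNFα replicate 4, at 1418 CPM against 1088 to 1114 CPM in the others, and this is the shallowest library. The test was run on 30 groups of 4 values, and chance alone would mark about 1 in 20 groups. The change of *Ccl9* with TNFα differed between genotypes, by 0.99 on the log2 scale in the edgeR interaction.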

How the results depend on the processing

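Recomputing the 38 member results with a test under the alternative settings gave 574 values. Of these 538 kept direction and side of the threshold, 13 lost the call, 7 gained it and 16 turned sign. No value that turned was past the threshold with all libraries. With 1 library left out, 0 to 1 members were called between genotypes with TNFα and 0 to 2 in the interaction, and the cause was not tested. Without a fold cutoff 3 members passed between genotypes with TNFα. Without replicate 4 of control cells in both treatments the interaction count was 2. Replicate numbers did not pair the samples: same-numbered libraries correlated at -0.178 to 0.119 in their deviations, and only 2 of 16 correlated best with their own number. With the replicate number as a block the interaction count fell to 0 (*Ccl9* edgeR adjusted p = 0.132), and counts in the other comparisons stayed at 7, 8, 1 and 0. In control cells, a fit to all 16 libraries called *Ccl4* (1.17) and *Ccl5* (4.81) with TNFα, and DESeq2, which gave no adjusted p for *Ccl2* and *Ccl20*, called 5 members. Shares of all genes were computed only for the main fits and those without control replicate 4, so the other counts show only how calls moved.

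Signs turned in part without control vehicle replicate 4. Over fits that left out 1 library, the log2 difference between genotypes with vehicle ranged from -1.77 to 0.57 for *Ccl2*, -0.38 to 0.53 for *Ccl3* (0.05 without *Notch2*tm1.1Ecan replicate 4), -6.42 to 1.69 for *Ccl5* and -3.60 to 0.15 for *Ccl20*. With TNFα it ranged from -0.081 to 0.058 for *Ccl5* (-0.07 without control replicate 4) and from -0.0018 to 0.12 for *Ccl7*. The interaction ranged from -0.24 to 2.11 for *Ccl2*, -0.045 to 0.48 for *Ccl4*, -1.66 to 6.41 for *Ccl5* and -0.70 to 0.074 for *Ccl7*, and without both control replicates 4 it was -0.31 for *Ccl2* and -1.72 for *Ccl5*. With raw totals as library sizes, 1 of 36 levels moved by more than its SD, *Ccl9* in *Notch2*tm1.1Ecan TNFα cells to 29.7 CPM per kb. The depth of *Notch2*tm1.1Ecan TNFα replicate 4 and counts under 20 in every library limit *Ccl8* and *Ccl11*.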

Other observations

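Of 19 regulators of chemokine transcription and mRNA stability, 16 rose and 2 fell with TNFα in control cells, against 23.3% of all genes higher and 20.9% lower at an adjusted p under 0.05, and 16 rose and 2 fell in *Notch2*tm1.1Ecan cells. The genes that fell were *Fos*, a subunit of AP-1, by 1.91 and 2.42 on the log2 scale, and *Cebpd*, by 0.79 and 0.71, and *Rel* passed in neither. Inhibitors of NF-κB rose in control and *Notch2*tm1.1Ecan cells: *Nfkbia* by 3.37 ± 0.511 and 3.97 ± 0.0712, *Nfkbie* by 4.05 ± 0.857 and 5.53 ± 0.0877, and *Tnfaip3*, which ends NF-κB signaling, by 3.77 ± 0.584 and 5.18 ± 0.0973. Without control vehicle replicate 4 the control values were 4.05 ± 0.0883 for *Nfkbia*, 5.80 ± 0.106 for *Nfkbie* and 4.87 ± 0.0973 for *Tnfaip3*, and the counts of 16 and 2 did not change. With TNFα, where 5.63% of all genes passed as higher, 4 of the 19 had a higher level in the *Notch2*tm1.1Ecan cells, *Nfkb1* by 0.32, *Rela* by 0.26, *Tnfaip3* by 0.39 and *Zfp36l1*, which promotes decay of cytokine mRNA, by 0.41. With vehicle *Nfkbiz* was 0.49 lower with all libraries, and without control replicate 4 it did not pass (-0.32) and *Zfp36l1* was 0.38 higher. None of the 19 passed in the interaction with edgeR.

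Over the 16 libraries, the gene whose log2 level was most like that of *Ccl2* was *Casp4* (Pearson r = 0.999), and for *Ccl5* it was *Nos2* (0.999), followed by *Cxcl10* and *Cxcl9*. *Acod1* was most like *Ccl20* (0.997), *Cd83* most like *Ccl7* (0.996), *Rhof* most like *Ccl9* (0.995) and *Jak2* most like *Ccl3* (0.982), out of 13428 genes compared. For *Ccl4*, at few counts, the highest r was 0.868, with *Emc2*. All these points share the split between vehicle and TNFα libraries, and the values describe these libraries only.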
